A study of Homo sapiens with 3 samples.

Results

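SP1, SP2, SP3, SP4, KLF3, KLF5, KLF6, KLF10, KLF13 and KLF16 are zinc finger transcription factors that bind GC-rich promoter elements, and they were chosen by name as GC-box factors. No measured level entered this rule, although earlier results of these data were known. They are 10 of the 61193 genes with a listed transcript in the RNA-seq tables. RNA-seq was performed on HEK293T, a line derived from human embryonic kidney cells and transformed with the large T antigen of SV40, in 3 replicates of 1 condition, cells grown in standard medium and collected on the day after seeding. No other condition was measured, so every value below describes these cells and no test between conditions was possible. The study mapped i-motifs (iMs) and G-quadruplexes (G4s), folded structures of C-rich and G-rich DNA, and used RNA-seq to set them beside transcription. GC-box factors bind the same kind of sequence, and the question here is which of them these cells transcribe.

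The SP and KLF proteins form a single family that shares a C-terminal block of C2H2 zinc fingers. Through these fingers they recognise the GC box, whose core reads GGGCGG, or the related CACCC box, and many promoters without a TATA box carry such elements close to the transcription start site. Outside the fingers the family diverges, with glutamine-rich activation regions in SP1, SP3 and SP4 and short motifs that recruit the corepressors CtBP or SIN3 in several KLF proteins. Members with similar fingers can compete for the same sites, so the set of members present in a cell matters for how a GC box is read.

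GC-box factors can bind their own kind of promoter, and the sequence before the start of the members is therefore shown first. The RefSeq promoter table (GRCh38.p14) matched 8 of the 10 members, all except KLF3 and KLF10, and its windows run from 250 bases before to 50 bases after the start. The 250 bases before the start are given 5′ to 3′ on the strand of the gene, with GC boxes in capitals, as GGGCGG on this strand or CCGCCC where the box lies on the other strand. SP1 is shown as a member with 0 counts in every library, SP2 as the member with the highest TPM, SP4 and KLF16 for their numbers of boxes, and KLF6 as a KLF member with 0 counts. The windows lie at chr12:53379926-53380175 (plus strand) for SP1, chr17:47895986-47896235 (plus strand) for SP2, chr7:21427833-21428082 (plus strand) for SP4, chr10:3785210-3785459 (minus strand) for KLF6 and chr19:1863580-1863829 (minus strand) for KLF16.
SP1: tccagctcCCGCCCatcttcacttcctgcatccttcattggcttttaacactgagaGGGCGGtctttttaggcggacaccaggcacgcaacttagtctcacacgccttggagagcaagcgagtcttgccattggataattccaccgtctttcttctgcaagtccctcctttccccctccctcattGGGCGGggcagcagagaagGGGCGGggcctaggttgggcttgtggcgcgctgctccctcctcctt
SP2: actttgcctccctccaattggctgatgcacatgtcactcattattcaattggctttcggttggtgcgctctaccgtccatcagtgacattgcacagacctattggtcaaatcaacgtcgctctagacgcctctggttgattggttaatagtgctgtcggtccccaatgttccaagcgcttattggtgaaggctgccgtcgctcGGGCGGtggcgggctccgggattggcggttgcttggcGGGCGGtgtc
SP4: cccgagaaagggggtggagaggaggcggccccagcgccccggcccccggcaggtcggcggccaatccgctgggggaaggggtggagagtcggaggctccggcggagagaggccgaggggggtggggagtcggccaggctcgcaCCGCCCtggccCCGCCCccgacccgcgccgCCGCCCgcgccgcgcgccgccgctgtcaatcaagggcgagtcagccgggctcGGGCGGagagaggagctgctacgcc
KLF6: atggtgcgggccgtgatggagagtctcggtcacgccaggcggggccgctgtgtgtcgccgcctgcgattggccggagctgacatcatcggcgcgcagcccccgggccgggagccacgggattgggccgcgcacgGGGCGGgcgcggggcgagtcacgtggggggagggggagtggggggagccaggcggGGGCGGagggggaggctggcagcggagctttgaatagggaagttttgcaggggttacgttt
KLF16: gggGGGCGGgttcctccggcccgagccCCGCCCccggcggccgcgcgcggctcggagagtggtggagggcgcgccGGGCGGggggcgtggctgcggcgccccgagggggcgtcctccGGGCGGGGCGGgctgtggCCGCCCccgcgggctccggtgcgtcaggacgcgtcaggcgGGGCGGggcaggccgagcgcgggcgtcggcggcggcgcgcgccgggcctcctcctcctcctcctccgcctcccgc

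Every one of the 8 members with a window had at least 2 GC boxes in it, and all boxes lay before the start. Over the whole table, 44.6% of 27305 promoters held at least 1 box, and 59.3% of 15334 promoters of protein-coding genes did. Boxes are therefore common in promoters, with a median of 1 in those of protein-coding genes, and 37.4% of these held 2 or more. Matches of letters are a description of the window and do not show that a protein binds there.

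KLF16, a repressor that binds SIN3, had the most boxes, with 7, a number reached by 2.21% of protein-coding promoters. They began at positions -247, -223, -175, -133, -128, -115 and -75 from the start, those at -133 and -128 share a base, and 5 of the 7 lay on the strand of the gene. Its 250 bases before the start were also the richest in G and C of the 8, at 86.4%, whereas the median of all promoters was 58.0%. SP1 and SP4 had 4 boxes each, and 13.1% of protein-coding promoters held 4 or more. In SP1 they began at -242, -194, -65 and -46, in a window with 58.0% G and C. In SP4 they began at -107, -96, -77 and -25, 3 of them on the other strand, in a window with 78.8% G and C. KLF13 had 3 boxes, all on the other strand, and SP2, SP3, KLF5 and KLF6 had 2 each. SP2 had the lowest share of G and C, 55.2%, and both of its boxes lay within 50 bases of the start, at -47 and -10.

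**Figure D1:**
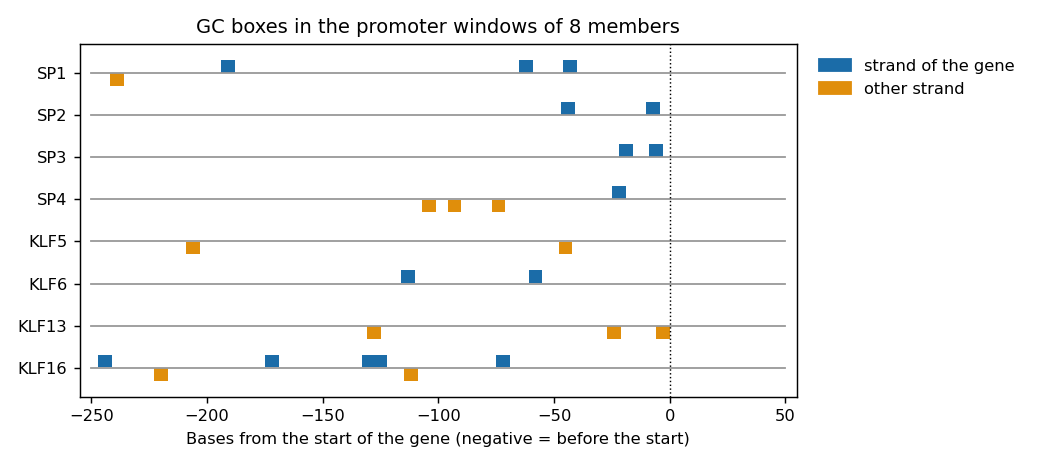
Positions of GC boxes (GGGCGG on either strand) in the promoter windows of the 8 members found in the RefSeq table, in bases from the start of the gene, with boxes on the strand of the gene in blue above the line and those on the other strand in orange below it. All boxes lie before the start, and KLF16 has 7 of them whereas SP2, SP3, KLF5 and KLF6 have 2 each.

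The choice of start mattered for some members. SP1 has a further RefSeq start 468 bases downstream of the canonical one, and the window there held 10 boxes in place of 4. KLF5 has a further start 4029 bases upstream, with 0 boxes. The 2 other starts of SP3 had 2 and 1 boxes. The CACCC box was searched in the longer form GGGTGG on either strand of the canonical windows. This form was found in 3 of the 8 members, with 3 copies in SP4 and 1 copy each in SP3 and KLF13. Matches to CACCC alone, as in the window of KLF5, were not counted. The share of all promoters with GGGTGG was not determined, so this count is not read as a trait of the members. Since iMs and G4s need runs of Cs or Gs, 4 tracts of at least 3 Cs or Gs with loops of 0 to 7 bases were searched as well. Such a run of tracts was present in the windows of 5 of the 8 members (SP3, SP4, KLF6, KLF13 and KLF16) and in 32.7% of protein-coding promoters. SP1, SP2 and KLF5 had none in the canonical window. The window at the further start of SP1 held 1 run of C-tracts and 1 run of G-tracts.

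Reads were counted with a QuantSeq 3′ mRNA-seq protocol, which primes at the poly(A) tail and reads the 3′ end of transcripts. The libraries of replicates 1, 2 and 3 held 7019253, 6262175 and 8521624 counts, and a gene with 0 counts may still have a level worth up to 3 counts, which are 0.427, 0.479 and 0.352 counts per 1000000 (CPM). Such limits and the exact Poisson intervals below cover counting error only, because the reads carry no molecular identifiers. Levels are given as TPM, the count divided by transcript length and rescaled to a fixed sum per library, added over the transcripts of a gene. A gene with a mean of at least 1 TPM over the replicates was taken as expressed, and the quartiles of the 13296 expressed genes, 2.40 and 24.1 TPM, bounded low, medium and high expression. Genes of the mitochondrial genome took 22.8%, 15.4% and 44.2% of TPM in replicates 1, 2 and 3, which leaves a smaller share for all other genes in replicate 3. Of 10 markers of other cell types, among them PTPRC, PECAM1 and ALB, 0 were expressed and 8 had 0 counts in every replicate. Of 9 genes used as markers of HEK293 cells, 4 (INA, PAX2, LHX1 and KRT8) were expressed, whereas KRT18, NEFL and NEFM had 0 counts and VIM and SOX11 lay under 1 TPM, so part of the markers of the label was found. Of these 5 genes, VIM and NEFM have no base of their own at their 3′ end and KRT18 has 2% of such bases, a property described further on for the members, whereas NEFL and SOX11 have 100%. Of the 4 expressed markers, PAX2 also has 0%, INA and LHX1 have 100%, and KRT8 has no value.

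Of the 10 members, 5 were expressed and 5 lay under 1 TPM. SP2, SP3, SP4, KLF3 and KLF16 were at or above 1 TPM, that is 3 of the 4 SP and 2 of the 6 KLF members, whereas SP1, KLF5, KLF6, KLF10 and KLF13 had at most 1 count in any replicate. Among all genes 21.7% were expressed, and among protein-coding genes 38.2%, and the 5 of 10 members are read against these shares. These 5 genes were also the ones at or above 1 TPM in every single replicate.

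SP2 occupies promoters of many housekeeping genes, where the factor NF-Y can bring it to CCAAT boxes. SP2 (ENSG00000167182, GRCh38 chromosome 17 from 47896150 to 47928957, plus strand) had 54.4, 48.8 and 32.5 TPM in replicates 1, 2 and 3, from 747, 558 and 655 counts. Its mean of 45.2 ± 11.4 TPM (SD, n = 3) was the highest of the members and in the high category. It lay at percentile 83.7 of the expressed genes and at percentile 78.2 of the expressed protein-coding genes.

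SP3, which competes with SP1 for GC boxes and can activate or repress, was of medium level. SP3 (ENSG00000172845, chromosome 2 from 173880850 to 173965373, minus strand) had 11.6, 11.2 and 7.41 TPM, from 547, 514 and 511 counts, with a mean of 10.0 ± 2.28 TPM (SD, n = 3). This level lay at percentile 59.0 of the expressed genes and 48.9 of the protein-coding ones, close to the median of 10.5 TPM of the latter. SP4 is an activator best known from neurons. SP4 (ENSG00000105866, chromosome 7 from 21428043 to 21514822, plus strand) had 7.51, 8.58 and 4.89 TPM, from 207, 200 and 178 counts, and its mean of 6.99 ± 1.90 TPM (SD, n = 3) was also in the medium category.

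SP1 is the founding member and activates a large number of housekeeping and growth-related genes. SP1 (ENSG00000185591, chromosome 12 from 53380176 to 53416446, plus strand) had 0 counts in every replicate, on each of its 4 listed transcripts. The limit of 3 counts, 0.427, 0.479 and 0.352 CPM, is far under the 73.3 ± 11.8 CPM (SD, n = 3) of SP3. The gene was thus not detected at this depth, and its 3′ end, described further on, limits what this count can say.

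KLF3 recruits the corepressor CtBP and acts mostly as a repressor. KLF3 (ENSG00000109787, chromosome 4 from 38664197 to 38701517, plus strand) had 35.0, 33.1 and 21.7 TPM, from 832, 687 and 739 counts, the highest counts of any member. Its mean of 29.9 ± 7.16 TPM (SD, n = 3) was in the high category and at percentile 71.2 of the expressed protein-coding genes. The genes of the CtBP proteins were expressed at medium level, CTBP1 with 13.3 ± 7.89 TPM and CTBP2 with 14.8 ± 3.93 TPM (SD, n = 3).

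KLF5 and KLF6 are activators, the former of proliferation in epithelia and the latter first described as a core promoter element binding protein and a candidate tumour suppressor. KLF5 (ENSG00000102554, chromosome 13 from 73054976 to 73077541, plus strand) had 1, 0 and 0 counts, and its single count in replicate 1 corresponds to 0.142 CPM with an exact Poisson interval of 0.00361 to 0.794. KLF6 (ENSG00000067082, chromosome 10 from 3775996 to 3785281, minus strand) had 0 counts in every replicate on its 7 listed transcripts. Both lie under that limit of 3 counts.

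KLF10, KLF13 and KLF16 share the recruitment of SIN3, a scaffold for histone deacetylases, and of these KLF16 alone was expressed. KLF16 (ENSG00000129911, chromosome 19 from 1852399 to 1863579, minus strand) had 3.34, 3.69 and 2.38 TPM, from 44, 41 and 46 counts, with a mean of 3.14 ± 0.679 TPM (SD, n = 3). At these counts the exact Poisson intervals were 4.55 to 8.42, 4.70 to 8.88 and 3.95 to 7.20 CPM in replicates 1, 2 and 3, so the intervals of all 3 replicates overlapped. KLF10 (ENSG00000155090, chromosome 8 from 102648784 to 102655725, minus strand), first known as a gene induced early by TGF-β, had 0, 1 and 0 counts. KLF13 (ENSG00000169926, chromosome 15 from 31326835 to 31435665, plus strand) had 0 counts in every replicate on its 7 listed transcripts. Of the SIN3 scaffolds themselves, SIN3A had 13.1 ± 2.70 TPM and SIN3B 25.7 ± 9.77 TPM (SD, n = 3).

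**Figure D2:**
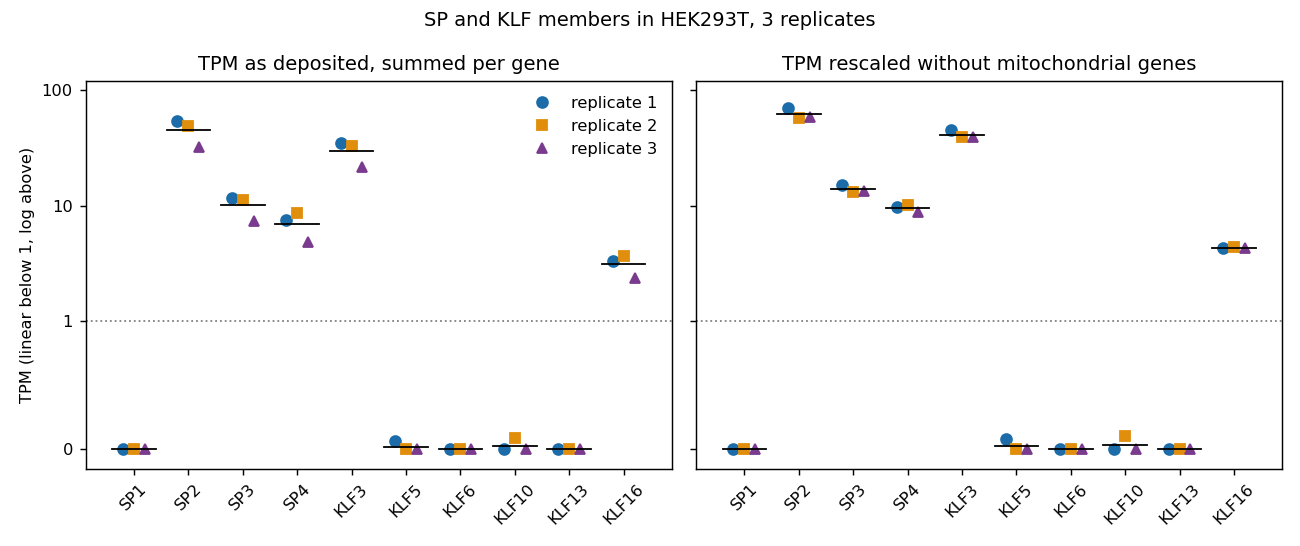
TPM of the 10 members in each of the 3 HEK293T replicates, as deposited (left) and rescaled with mitochondrial genes left out (right), on an axis that is linear below 1 and logarithmic above, where bars give the mean of the replicates and the dotted line 1 TPM. SP2, KLF3, SP3, SP4 and KLF16 lie above the line in every replicate and the other 5 members lie at or near 0. Replicate 3 is the lowest of the expressed members on the left and lies closer to the other replicates on the right.

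In TPM the expressed members were ordered SP2, KLF3, SP3, SP4 and KLF16, and each was above the next in 3 of 3 replicates. The means differed by 1.51 times between SP2 and KLF3, 2.98 times between KLF3 and SP3, 1.44 times between SP3 and SP4, and 2.23 times between SP4 and KLF16. The ranges of the replicates did not overlap for KLF3 and SP3 or for SP4 and KLF16. They overlapped for SP2 and KLF3, where the lowest SP2 value, 32.5 TPM, was under the highest KLF3 value, 35.0 TPM, and for SP3 and SP4, with 7.41 against 8.58 TPM. Neighbours in this order were not tested, since 3 values against 3 cannot give a two-sided exact permutation p under 0.1.

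Values of replicate 3 were the lowest in each of these 5 members, between 0.608 times (SP4) and 0.677 times (KLF16) the mean of the other replicates. With mitochondrial genes left out, these ratios were between 0.883 and 0.982, and none of the 4 neighbouring pairs overlapped. On this scale, means were 62.1 ± 7.23 TPM for SP2, 41.1 ± 3.62 for KLF3, 13.8 ± 0.996 for SP3, 9.54 ± 0.706 for SP4 and 4.32 ± 0.0475 for KLF16 (SD, n = 3). The coefficient of variation of the 5 members was between 1.10% and 11.7% on this scale, and between 21.6% and 27.2% in TPM as deposited. In TPM as deposited but without replicate 3, none of the 4 pairs overlapped either. What set replicate 3 apart was not tested, and in bulk RNA a gene made by fewer cells and less RNA of it per cell cannot be told apart.

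Division by length sets the order of SP2 and KLF3. In CPM, which does not divide by length, KLF3 (105 ± 16.4 CPM) was above SP2 (90.8 ± 14.9 CPM) in 3 of 3 replicates, with overlapping ranges. The canonical transcript of KLF3 is listed with 5594 bases and that of SP2 with 3026. Reads of a 3′ library do not grow in number with length, so levels between members are given on both scales here. SP3, whose canonical transcript is listed with 12045 bases, had 73.3 ± 11.8 CPM (SD, n = 3). In CPM the mean of KLF3 was 1.43 times that of SP3, and the mean of SP3 was 2.67 times that of SP4. The ranges of the replicates were separate in both pairs, whereas those of SP3 and SP4 overlapped in TPM. SP4 with 27.4 ± 5.80 CPM and KLF16 with 6.07 ± 0.599 CPM (SD, n = 3) kept their places at the end of the order.

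Summed over the listed members only, SP transcripts outweighed KLF transcripts. The 4 SP members held 73.5, 68.5 and 44.8 TPM in replicates 1, 2 and 3 and the 6 KLF members 38.4, 36.8 and 24.1 TPM. The KLF sum was thus 0.522, 0.538 and 0.539 times the SP sum, a ratio of 0.533 ± 0.00905 (SD, n = 3), and 0.580 ± 0.00639 in CPM. The ratio varied far less between replicates than the levels did. Scaling of a whole library cancels in such a ratio, which was also 0.533 with mitochondrial genes left out. Its small spread is therefore not read as a trait of the members. In TPM, SP2 made up most of the SP sum and KLF3 most of the KLF sum. SP1, KLF5, KLF6, KLF10 and KLF13 add almost nothing, and their 3′ ends, described further on, limit what these sums can say. Expressed relatives are in neither sum, namely KLF9 (69.6 TPM), KLF15 (32.6), KLF12 (20.4), KLF2 (5.99) and KLF14 (2.11), and SP9 (35.8) and SP5 (2.44). The direction is therefore given for the members and not for the whole family.

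Counts of the members lay on few of their listed transcripts. The same shares over all listed transcripts were not determined, so those below are not read as particular to the members. Of 53 listed transcripts 13 had at least 1 count, and the canonical transcripts held 6424 of 6508 counts, which is 98.7%. This share was 99.9% for SP2, 99.0% for SP3, 99.8% for SP4, 97.0% for KLF3 and 100% for KLF16. None of the 17 transcripts without an exonic base of their own had a count, and the part that the counting of shared reads has in this was not tested.

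KLF3 had the only other transcript above 1 TPM. ENST00000514033 is annotated as protein-coding, has 1871 bases and ends upstream, at position -10766 in genomic bases from the canonical end. It had 23, 11 and 31 counts, or 2.71, 1.53 and 2.48 TPM, and 2.24 TPM on average. Unlike the canonical KLF3 transcript it was not lowest in replicate 3. SP3 had 2 minor transcripts, the retained intron ENST00000465379 with 3, 1 and 3 counts and ENST00000483084 with 4, 0 and 4 counts. The latter has 567 bases and so reached 0.871 TPM on average, so that the canonical transcript held 90.5% of the TPM of SP3 but 99.0% of its counts. The retained intron of KLF3 and further transcripts of SP2 and SP4 had at most 1 count in any replicate.

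**Figure D3:**
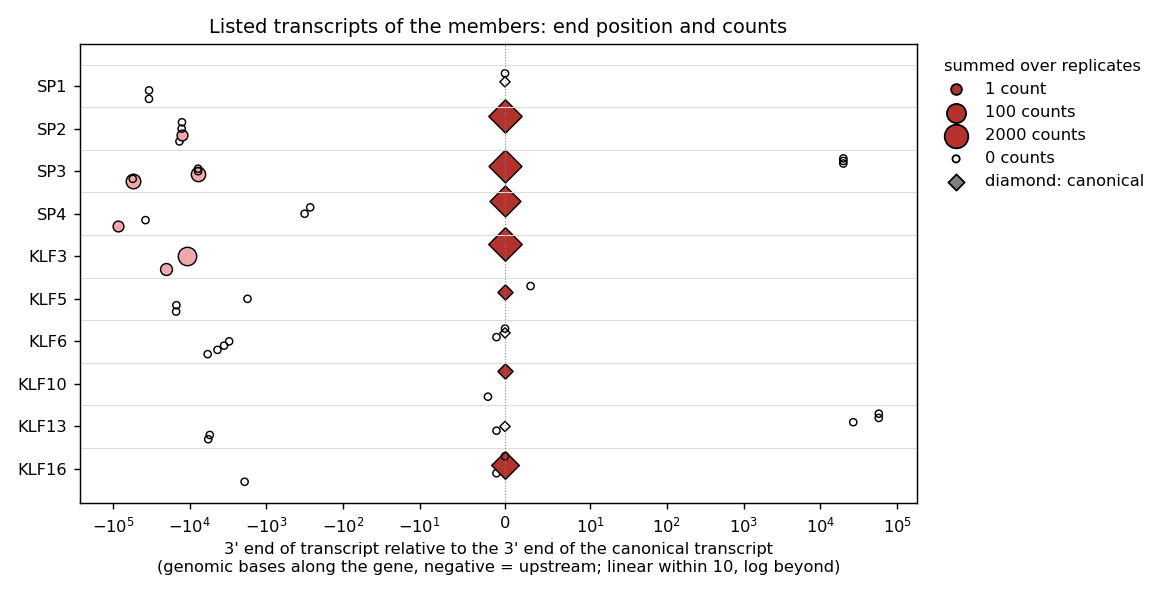
Listed transcripts of the 10 members by the position of their 3′ end relative to that of the canonical transcript, in genomic bases along the gene on an axis that is linear within 10 and logarithmic beyond, where diamonds are canonical transcripts, filled symbols have counts and their size grows with the counts summed over replicates. Counts lie on the canonical transcripts of SP2, SP3, SP4, KLF3 and KLF16, and ENST00000514033 of KLF3 is the largest symbol away from 0. Other transcripts of SP1, KLF5, KLF6, KLF10, KLF13 and KLF16 end within a few bases of the canonical end.

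Because reads come from transcript ends, the members were compared for how much of their end belongs to a single listed transcript. Own bases are exonic bases found in no other listed transcript on that strand, and they were counted in the final 300 exonic bases of each canonical transcript. Only listed transcripts matched to the annotation GENCODE v44 were compared, with its exons, so sharing with unmatched transcripts was not examined. They made up 100% of the end of SP2, SP3 and KLF3, 89.3% of SP4, 34.3% of KLF16, 0.667% of KLF10, 0.333% of KLF13 and 0% of SP1, KLF5 and KLF6. The end was thus shared throughout in 3 members, and in 40.5% of 19351 protein-coding genes. With a limit of 1%, chosen after the values were seen, it was shared in 5 members and in 46.1% of the protein-coding genes.

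The 5 members under 1% are the same 5 that lay under 1 TPM, and the 5 members above it are the 5 that were expressed. Of the windows of 150, 300 and 500 bases, this split holds for 300 bases only. Over the last 150 bases the expressed KLF16 had 0% own bases and KLF10, under 1 TPM, had 1.33%, and over the last 500 bases KLF13, also under 1 TPM, had 18.6%. Over all protein-coding genes, 25.9% of the 8914 with under 1% own bases were expressed and 48.8% of the 10437 others, with a median count of 0.333 against 8.33. How reads on several transcripts were counted is not given in the sources used here, and its part in the counts of SP1, KLF5, KLF6, KLF10 and KLF13 was not tested. A count near 0 in these genes therefore does not show that the gene is silent.

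The genes differ in how the end is shared. The canonical transcript of SP1, ENST00000327443, has 0 own bases among 7680, and ENST00000426431 ends at the same base. That of KLF6, ENST00000497571, has 0 own bases among 4590. In KLF5, ENST00000539231 ends 3 bases beyond the canonical transcript, and in KLF10, ENST00000395884 ends 2 bases before it. KLF13 is shared at its end alone, since 5741 of its 6845 bases are its own, but 0.333% of the last 300, with the transcript ENST00000558673 ending 1 base before the canonical end.

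SP4 shows the reverse of KLF13. SP4 has 268 own bases among 6077, and all lie at its very end, where the closest other transcript stops 268 bases short. It had 584 counts on this transcript over the replicates. KLF16 is closer to KLF13, with 1767 own bases among 2901 but 0 in its last 150 and 34.3% in its last 300. ENST00000541015 ends at the same base as its canonical transcript. KLF16 held 131 counts, the fewest of the expressed members.

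**Figure D4:**
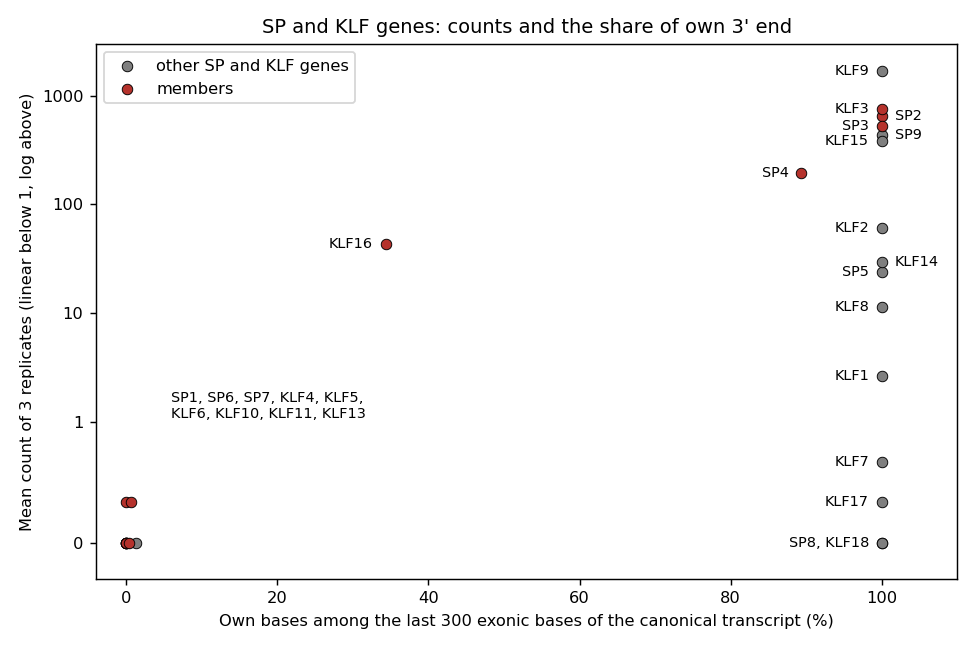
Mean count of the 3 replicates, on an axis that is linear below 1 and logarithmic above, against the percentage of own bases in the final 300 exonic bases of canonical transcripts, for the members (red) and for other SP and KLF genes (grey). The 9 genes named at the lower left have at most 1.33% own bases and a mean count of at most 0.333. Genes at 100% range from 0 counts for SP8 and KLF18 to 1709 for KLF9.

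Other features of the ends did not separate the members. An exact search for AATAAA or ATTAAA, the usual polyadenylation signals, found 1 in the last 50 bases of all 10 canonical transcripts, and in 77.4% of 20046 protein-coding canonical transcripts. AATAAA was present in 8 members and ATTAAA in KLF3 and KLF16. The signal of SP1 began 9 bases from the end, the closest, and that of SP2 33 bases, the farthest. None of the 270 words of 31 bases in the last 300 bases of any member occurred in a GENCODE v44 transcript of another gene. Listed transcripts without a match in GENCODE v44 were not searched. On the opposite strand, KLF3-AS1 overlaps 265 exonic bases of KLF3, 0 of them in its last 300, and had 0, 0 and 4 counts. The long non-coding RNA gene ENSG00000267125 overlaps 483 bases of KLF16, 52 of them in the last 300, and had 0 counts. Whether counting used the strand is not given in the sources used here, so reads of these pairs could be mixed.

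The 10 members belong to 27 SP and KLF genes in all, of which 12 were expressed. The other 17 genes had 7 expressed and 6 with 0 counts, beside 38.2% expressed of all protein-coding genes. KLF9, a factor induced by glucocorticoids and thyroid hormone, was the highest of the family with 72.1, 87.1 and 49.4 TPM and a mean of 69.6 ± 19.0 TPM (SD, n = 3). In TPM, SP2 followed at rank 2 with 45.2 TPM, and its highest value, 54.4 TPM, overlapped the range of KLF9. SP9 (35.8 ± 9.98 TPM) and KLF15 (32.6 ± 14.6 TPM) came next, with ranges that overlap that of KLF3, the fifth. KLF12 (20.4 ± 4.02 TPM), KLF2 (5.99 ± 0.326 TPM), SP5 (2.44 ± 0.527 TPM) and KLF14 (2.11 ± 0.511 TPM) completed the expressed genes (SD, n = 3). Without division by length the order differed. By mean count KLF9 (1709) was followed by KLF12 (996), KLF3 (753), SP2 (653), SP9 (434) and KLF15 (381). The 17 other genes summed to 170 TPM and the 10 members to 95.3 TPM.

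The ends of these relatives can be set beside those of the members. Of the 16 with a listed canonical transcript, SP6, SP7, KLF4 and KLF11 had under 2% own bases, and 0 of these 4 were expressed. Of the 12 others, all with an end of their own, 6 were expressed. KLF7, KLF8, KLF17, KLF18, KLF1 and SP8 have 100% own bases and stayed under 1 TPM, KLF8 with 11, 12 and 11 counts. All expressed SP and KLF genes with a listed canonical transcript had at least 34.3% own bases, and so did genes near 0.

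Further zinc finger and other factors that bind GC-rich promoter sequence were measured beside the members. Of 18 such genes 7 were expressed, close to the 38.2% of all protein-coding genes. Their median was 0.295 TPM, where the median of all protein-coding genes was 0.195 TPM. Under 1% own bases were found in 11, of which 2 were expressed. ZBTB7A (200 ± 77.6 TPM), YY1 (130 ± 37.4 TPM) and E2F1 (83.0 ± 29.7 TPM) were the highest, each above SP2 in mean (SD, n = 3). E2F4, EGR2 and EGR4 had 0 counts, and all of these have at most 0.333% own bases. TFAP2A, which also binds GC-rich sequence, was high with 51.2 ± 29.0 TPM although it has 0% own bases, so a shared end did not always go with a count near 0. It is named after its value was seen.

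Of 20 cofactors and modifiers of SP and KLF proteins 14 were expressed, with a median of 14.0 TPM, beside 38.2% of all protein-coding genes. Of the 14 with at least 1% own bases 12 were expressed, and of the 6 others 2. WDR5 (394 ± 120 TPM), SUDS3 of the SIN3 complex (108 ± 37.7 TPM) and the acetyltransferase EP300 (81.4 ± 31.6 TPM) were the highest (SD, n = 3). Of 20 genes with well-known GC-box promoters 11 were expressed, with a median of 2.13 TPM, also beside 38.2% of all protein-coding genes. ODC1, an enzyme of polyamine synthesis, was the highest with 289 ± 93.9 TPM (SD, n = 3), and MT2A, a metallothionein, had 0 counts. Among these 20 genes, 4 of the 10 with under 1% own bases were expressed and 7 of the 9 others with a listed canonical transcript.

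The promoter and the transcript level were set side by side for the members with a window. The expressed SP2, SP3, SP4 and KLF16 had 2, 2, 4 and 7 GC boxes, and SP1, KLF5, KLF6 and KLF13, which lay under 1 TPM, had 4, 2, 2 and 3. The highest number of boxes thus belonged to KLF16, the lowest of the expressed members, whereas SP2, the highest in TPM, had 2. KLF3, which was above SP2 in CPM, has no window. Of the 4 expressed members with a window, 3 held a run of 4 C- or G-tracts in the canonical window. Of the 4 under 1 TPM, KLF6 and KLF13 did, and SP1 had such runs only at its further start.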

How the data were processed

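Total RNA of HEK293T cells was made into QuantSeq 3′ libraries in 3 replicates of 1 condition, although the labels give the molecule as genomic DNA. The submitters' processing notes name Trimmomatic (0.38.0), HISAT2 (2.2.1), featureCounts and the hg38 build, and the treatment of reads on several transcripts and of the strand is not given in the sources used here. The authors deposited raw read counts, in whole numbers, for each of 247541 transcripts. Their deposited TPM divides each count by the deposited transcript length and scales every library to 1000000, as recomputing it showed. Transcripts were joined without version to GENCODE v44, which matched 223558 transcripts of 61193 genes. The unmatched transcripts held 0.158% to 0.166% of the counts and stayed in the library totals only. Counts and TPM were summed per gene. The deposited length of the canonical SP3 transcript, 12045 bases, differs from the 11714 of GENCODE v44, from which its end was taken.

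No test was run, since a single condition was measured. The members and gene lists were chosen with earlier results of these data known. Genes named beside the members are all other expressed SP and KLF genes and, of each list, the 3 with the highest mean TPM and up to 3 with 0 counts in alphabetical order, some of which are not reported here. CTBP1, CTBP2, SIN3A, SIN3B, the SP and KLF genes under 1 TPM and TFAP2A were named outside this rule, after their values were seen, and the cell type markers come from 2 lists of their own. The study describes the replicates as biological and independent. Alternatives were other thresholds, CPM, mitochondrial genes left out, protein-coding transcripts, the median, each replicate left out, other end windows and other motifs. The scripts were tested on simulated data. Python 3.11.15, numpy 2.4.6, pandas 2.3.3, scipy 1.17.1 and matplotlib 3.10.9 were used.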

Additional observations from a re-analysis of the deposited data

How the results depend on the processing

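The number of members taken as expressed, 5, was 3 with a mean TPM of at least 10 and 7 with a mean above 0, and it was 5 under the other 8 alternatives, including each replicate left out in turn (5 to 5). The ratio of the KLF to the SP sum, 0.533, was 0.580 in CPM and between 0.530 and 0.538 with single replicates left out. Of the 4 neighbouring pairs in the order of levels, 2 had separate ranges, 4 with mitochondrial genes left out, and between 2 and 4 with single replicates left out, the 4 being without replicate 3. The last bases were shared throughout in 3 members, in 4 with a window of 150 bases, and in 5 under a limit of 1% own bases, an alternative chosen after seeing the data. A GC box was present in 8 members and in 7 when searched as GGGCGGG, and GGGTGG, a longer form of the CACCC box, was present in 3. The cause of these changes was not tested beyond what each alternative itself sets. In CPM the order of SP2 and KLF3 turned, with SP2 at 0.865 times KLF3 and lower in 3 of 3 replicates. Of 115 values of single members (levels, ranks and shares), 11 moved. A level or share was taken as moved when it changed by at least the SD of the replicates, and a rank when it changed at all. No paired analysis was possible because there is 1 condition, with no other group whose replicates could be paired. Depth limits the members near 0, where up to 3 counts per library cannot be told from 0.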
